A study of Mus musculus with 2 samples.

Results

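The 10 genes described here encode gelatinases, membrane-type matrix metalloproteinases (MMPs) and the proteins that inhibit them. They were taken by symbol from a table of 21983 genes measured in chondrocytes, the cartilage-forming cells, grown from mice as primary cultures: Mmp2 and Mmp9 (gelatinases), Mmp14 and Mmp16 (membrane-type MMPs), Mmp19 (a secreted MMP of neither class), Timp1, Timp2, Timp3 and Timp4 (tissue inhibitors of metalloproteinases) and Reck (a membrane-anchored inhibitor). All 10 symbols were in the table. The cells were labelled as wild type (WT). One culture received phosphate-buffered saline (PBS) and the other recombinant mouse Sparcl1 protein at 50 ng/ml, both for 3 days, and RNA was sequenced from each. Sparcl1 is a secreted matricellular protein, and the design asks which genes differ when it is added to chondrocytes. The samples are titled MCC, which the series title ties to primary mouse chondrocyte. The sources used here do not give the age or number of the animals or the joint or region of cartilage.

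MMPs are zinc-dependent enzymes that cut collagens and other matrix proteins. They are made as inactive precursors whose propeptide must be removed. Membrane-type MMPs sit on the cell surface, where Mmp14 activates the precursor of Mmp2 in a complex in which Timp2 serves as the bridge, so that one inhibitor both enables and limits the enzyme. In cartilage, the balance between metalloproteinases and TIMPs is known as a determinant of matrix loss.

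The 2 largest differences between the libraries, among the 9 of 10 genes with enough reads to compare, were in genes of inhibitors. Timp1 was 1.45-fold higher in the Sparcl1-treated library, and Reck was lower, at 0.858 times the control level. Mmp14 was lower as well, at 0.895 times. Timp2 and Timp3, abundant like Timp1, lay within 10% of equal levels in opposite directions. Mmp2, Mmp16 and Mmp19 had ratios within 2% of 1. Mmp9 and Timp4 were nearly undetected in both libraries.

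There was 1 library per group, so none of these differences has a replicate check and no test was made. The control library held 29858851 counts and the Sparcl1-treated library 26871933. Levels are given as CPM, counts scaled per 1e6 reads of a common library size, and ratios are Sparcl1-treated over PBS control, on the log2 scale unless called a fold. Each 95% interval is exact (Clopper-Pearson for ratios and shares, Poisson for levels) and covers the counting error of reads only. All 9 chondrocyte markers listed were detected, led by Col2a1 and Comp, and their summed level was 13810 CPM in the control and 12087 CPM after Sparcl1. Col2a1 alone held 8629.1 and 7331.5 CPM of these sums, while Comp was level (log2 0.03). Macrophage markers were also present, at 2128 and 2445 CPM summed over 10 genes. Lyz2 alone held 1327 and 1640 CPM of these sums, and the median log2 ratio of the 10 genes was 0.01. In bulk RNA, a different number of cells of one type and a different amount of RNA per cell cannot be told apart.

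A gene was called when it had 20 or more counts in both libraries together, differed by 1 or more on the log2 scale and had an interval clear of 0. None of the 9 members with enough counts was higher and none lower. Over all 13317 genes with that many counts, 0.954% were higher and 0.946% lower by the same rule. With 0.5 as the size, 1 of 9 members was higher, Timp1, and none was lower, against 2.8% and 2.97% of all genes. With no size asked for, 2 members were higher (Timp1 and Timp2) and 3 lower (Mmp14, Timp3 and Reck), against 20.1% and 21.6% of all genes. Those shares stand for 2675 higher and 2873 lower genes, and with total counts as library sizes the split turned to 3455 and 2162, with Mmp2 as another higher member. That last rule depends on depth, and 6 of the members had at least 10000 summed counts. Among the 954 genes of that depth, 31.3% were higher and 46.2% lower, so the 2 and 3 of 6 members called there lie close to those shares. The median log2 ratio of the 9 members was 0.00, as was that of all 13317 genes.

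**Figure D1:**
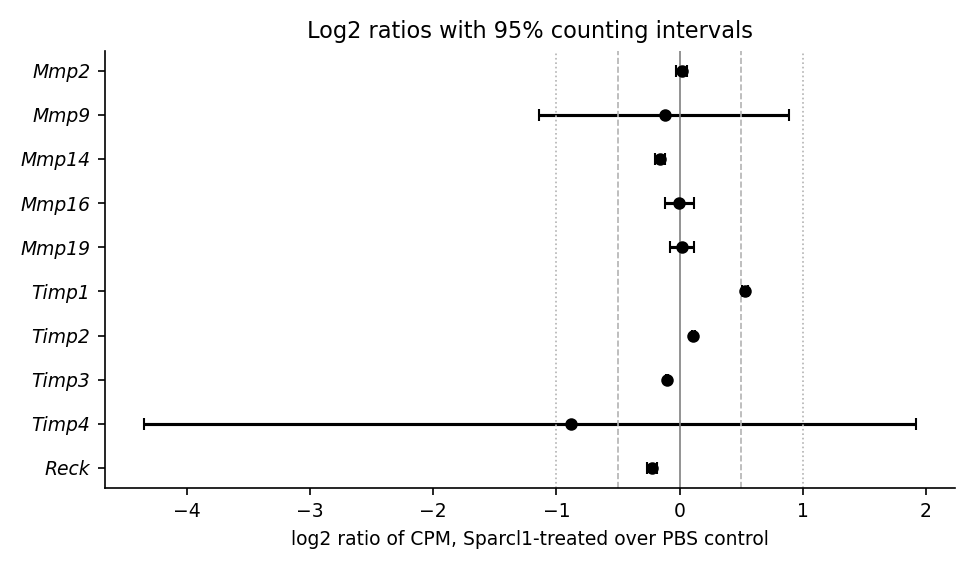
Log2 ratio of CPM (x axis, Sparcl1-treated over PBS control) for each of the 10 genes (y axis), with points for ratios and bars for 95% counting intervals. Dashed lines mark 0.5 and dotted lines 1 in size. Timp1 at 0.53 is the 1 gene whose whole interval lies past a dashed line. The intervals of Mmp2, Mmp9, Mmp16, Mmp19 and Timp4 hold 0, and those of Mmp9 and Timp4 are the widest.

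Mmp2, gelatinase A, was the most abundant of the 5 protease genes per length of annotated exon. It degrades denatured collagen and basement membrane collagen and is made by most mesenchymal cells. Its counts were 8826 in the control and 8233 after Sparcl1, or 299 and 303 CPM. The log2 ratio was 0.02 (-0.03 to 0.06), so the counting interval allowed at most a 4.27% higher and a 1.83% lower level. Mmp2 lies on chromosome 8 at 92827291 to 92853420 of the GRCm38 assembly.

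Mmp9, gelatinase B, was close to absent. The enzyme is known from osteoclasts, neutrophils and macrophages, and in growth cartilage from the cells at the bone front. Only 20 counts were seen with PBS and 17 with Sparcl1, and its log2 ratio of -0.12 had an interval from -1.14 to 0.89, wide enough to hold a 2-fold lower level. Per kb of exon, the Mmp2 level was 463 times that of Mmp9 in the control and 508 times after Sparcl1. Of 9 neutrophil markers, 5 had no count in either library, Elane, Mpo and S100a9 among them, and 1 reached 20 summed counts (S100a8, 15 and 31 counts). Among 7 osteoclast markers the calcitonin receptor gene Calcr had no count and Acp5 had 72 and 57 counts. By the rule at 0.5, 2.8% of all genes were higher and 2.97% lower. Dcstamp, with 35 and 52 counts, was the 1 osteoclast marker called by it (log2 0.69, interval 0.04 to 1.35). Oscar went the other way with 18 and 9 counts (log2 -0.88), but its interval from -2.22 to 0.35 held 0. The summed level of the 7 markers was 89.2 and 91.3 CPM, most of it from Ctsk. The part of these cells in the Mmp9 level was not tested. Mmp9 is on chromosome 2 at 164940780 to 164955850.

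Mmp14, also called MT1-MMP, is the main activator of Mmp2 and a collagenase in its own right. The gene had 9635 counts with PBS and 7952 with Sparcl1, or 327 and 292 CPM. The log2 ratio was -0.16 (-0.20 to -0.12), a difference of -10.5%. That difference exceeds counting error but is small for its depth: of 954 genes with at least 10000 summed counts, 156 had a log2 ratio as low or lower. The gene lies on chromosome 14 at 54431612 to 54445364.

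Mmp16 (MT3-MMP), the second membrane-type member, had 1198 and 1103 counts, or 40.6 CPM in both libraries. Its log2 ratio was -0.00 (-0.12 to 0.12). Per kb of exon its level was 4.69 CPM in the control and 4.68 after Sparcl1, below that of Mmp14 at 54.8 and 49.1. Mmp16 spans 17852893 to 18119145 of chromosome 4, with the pseudogene Gm11860 in an intron.

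Mmp19, a secreted enzyme able to cut basement membrane proteins and aggrecan, had 1694 and 1584 counts, or 57.4 and 58.2 CPM, a log2 ratio of 0.02 (-0.08 to 0.12). Its position on chromosome 10, 128790910 to 128800824, overlaps Tmem198b on the opposite strand over 789 exon bases, 22.3% of the Mmp19 exons. Without a stated strand setting, reads from that stretch cannot be assigned to either gene. Tmem198b had 454 and 410 counts. The antisense gene Gm47093 shares 212 exon bases with Mmp19 and was not analysed here.

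**Figure D2:**
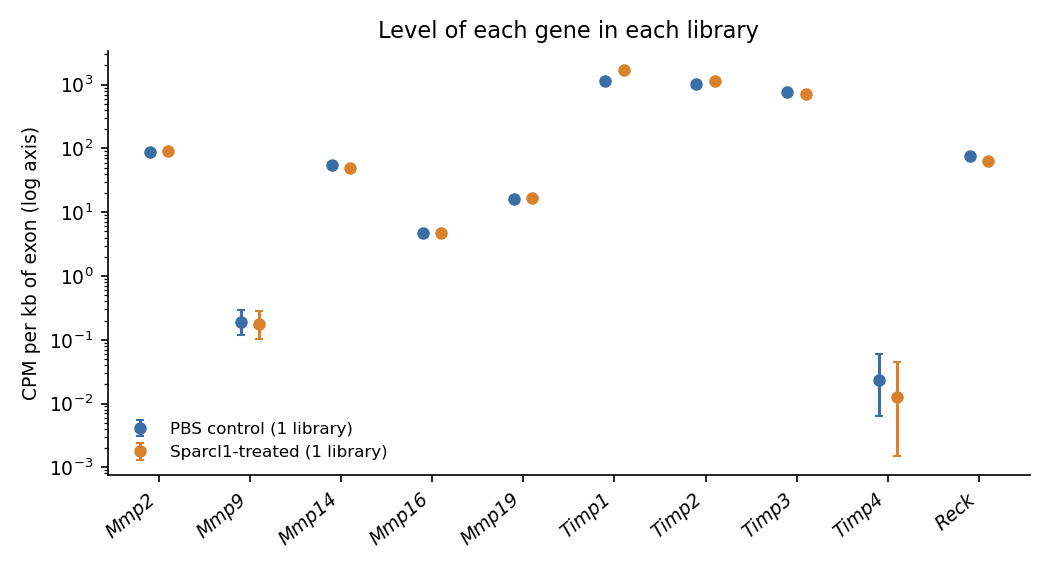
Level of each gene (x axis) in CPM per kb of annotated exon (log y axis) in the PBS control library (blue) and the Sparcl1-treated library (orange), with bars for exact 95% Poisson intervals of the counts. Timp1, Timp2 and Timp3 lie at or above 724 in both libraries, Mmp2, Mmp14 and Reck between 49.1 and 89.8, and Mmp9 and Timp4 below 0.2.

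Of the Timp genes, all but Timp4 were among the most abundant transcripts of the cultures. Together the 4 Timp genes took 1.13% of all counts in the control (interval 1.12 to 1.13) and 1.19% after Sparcl1 (1.19 to 1.19). Per kb of annotated exon, Timp1, Timp2 and Timp3 ranked 20, 23 and 35 among all genes in the control and 13, 22 and 36 after Sparcl1.

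Timp1 inhibits most secreted MMPs, Mmp9 with high affinity, but is a poor inhibitor of membrane-type MMPs. It is also known as a gene that many inflammatory and growth stimuli induce. The PBS library had 30427 counts of Timp1 and the Sparcl1 library 40561, or 1031 and 1491 CPM. The log2 ratio was 0.53 (0.51 to 0.55), a level 44.6% higher in the treated library. Among all 954 genes with at least 10000 summed counts, 4 had a ratio at least as high, Timp1 included. At that depth 0.629% of genes were higher by the rule at 0.5 and 0.629% lower, and Timp1 was the 1 of 6 members called. The other 3 genes with such ratios, named after their values were seen, were Mmp3 (log2 2.07), Angptl7 (0.91) and Spp1 (0.56). The central 95% of ratios at that depth ran from -0.34 to 0.32.

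Timp1 lies on the X chromosome at 20870166 to 20874735, inside an intron of the synapsin gene Syn1 on the opposite strand, with no exon bases shared. Syn1 had 89 and 107 counts. Because Timp1 had the largest ratio, its RefSeq promoter (GRCm38.p6) is shown, the 250 bases before the start (chrX:20869916-20870165, + strand), with matches to AGGAAG (an ETS factor core) and GGGCGG (a GC box) on either strand in capitals.
Timp1 promoter: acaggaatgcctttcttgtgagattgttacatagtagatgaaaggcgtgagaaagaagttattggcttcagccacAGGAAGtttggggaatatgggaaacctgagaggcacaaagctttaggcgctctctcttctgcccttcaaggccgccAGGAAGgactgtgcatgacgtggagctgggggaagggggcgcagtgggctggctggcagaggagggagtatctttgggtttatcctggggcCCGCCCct
Just after the start, at chrX:20870186-20870215, lies a variant AP-1 match (TGAGTAA), followed by another AGGAAG, both in capitals here.
Timp1 start site: ggtggaTGAGTAAtgcgtccAGGAAGcctg
Windows from 250 bases before to 50 after the start were available for 6 members (Mmp14, the 4 Timp genes and Reck), and 5 motifs were searched on both strands. TGAGTAA was found in Timp1 alone of the 6, and in 2.68% of 32851 windows of the same length. AGGAAG was in 4 of the 6 against 35.4% of all, and GGGCGG in 5 against 35.7%. None of the 6 held the AP-1 consensus TGAGTCA (5.20% of all) or the TATA box TATAAA (13.6%). The motifs share no letters where they matched in Timp1, and such matches describe the sequence only.

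Timp2, which inhibits MMPs broadly and bridges Mmp14 to the Mmp2 precursor, was nearly level. Counts were 119166 with PBS and 118826 with Sparcl1, or 4040 and 4369 CPM, a log2 ratio of 0.11 (0.10 to 0.12). The 8.15% higher level exceeds counting error, and 164 of the 954 deeply sequenced genes had a ratio at least as high. Timp2 lies on chromosome 11 at 118301069 to 118355740. Cep295nl sits within it on the same strand, shares no exon bases with it, and had 158 and 265 counts.

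Timp3 binds the matrix and inhibits the aggrecanases and the sheddase Adam17 as well as MMPs. With 186742 and 160350 counts, or 6330 and 5895 CPM, it had the most reads of the 10 genes. The log2 ratio was -0.10 (-0.11 to -0.09), a difference of -6.87%. Its exons, on chromosome 10 between 86300372 and 86349506, share 1733 bases, 21.3% of their length, with exons of Syn3 on the opposite strand. Syn3 had 10 and 11 counts. As for Mmp19, how reads from the shared stretch were assigned is not known.

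Timp4, known mainly from heart and other vascular tissue, had 4 counts with PBS and 2 with Sparcl1. The ratio of 0.542 had an interval from 0.0491 to 3.78, so no difference was detectable at this depth. It lies on chromosome 6 at 115241892 to 115252205, within Syn2 (0 and 3 counts, 90 exon bases shared) and Gm17482 (0 in both, none shared), both on the opposite strand.

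Reck is a glycolipid-anchored glycoprotein that restrains Mmp2, Mmp9 and Mmp14 at the cell surface. Counts were 10564 with PBS and 8358 with Sparcl1, or 358 and 307 CPM. The log2 ratio was -0.22 (-0.26 to -0.18), a difference of -14.2% and the lowest ratio among the members with at least 20 summed counts. Of the 954 deeply sequenced genes, 91 had a ratio as low or lower. Reck lies on chromosome 4 at 43875530 to 43944806, with the small RNA gene Gm27265 in an intron, and its promoter is shown beside that of Timp1 because the gene lay at the other end of the range. GC boxes are in capitals in the 250 bases before the start (chr4:43875280-43875529, + strand), and the last runs over the start.
Reck promoter: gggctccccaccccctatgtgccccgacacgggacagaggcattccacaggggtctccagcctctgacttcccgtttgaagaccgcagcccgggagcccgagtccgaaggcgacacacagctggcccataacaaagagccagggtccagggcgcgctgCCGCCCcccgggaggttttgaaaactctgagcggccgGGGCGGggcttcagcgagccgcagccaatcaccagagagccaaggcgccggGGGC
Its window held GC box matches at 3 positions and no match to the other 4 motifs.

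**Figure D3:**
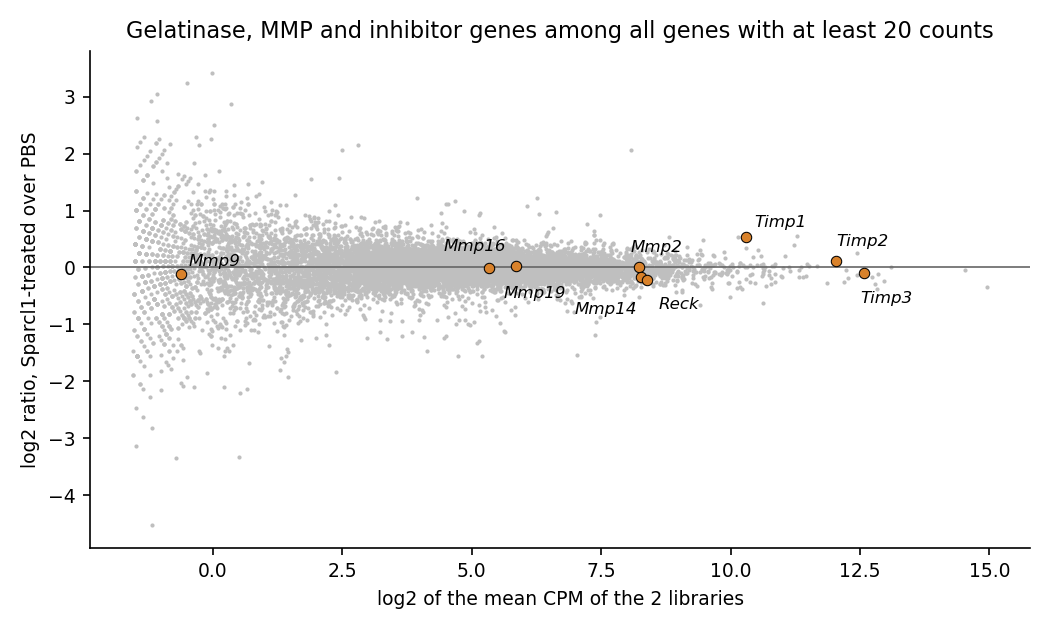
Log2 ratio (y axis, Sparcl1-treated over PBS control) against the log2 of the mean CPM of both libraries (x axis) for all 13317 genes with at least 20 summed counts (grey), with 9 members in orange. Timp1 lies at the upper edge of the genes of its abundance, and the other members lie inside the grey cloud.

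Ratios between genes within a library do not depend on how the libraries were scaled. The Timp1 level stood at 21.2 times that of Mmp14 per kb of exon in the control and 34.2 times after Sparcl1, a 1.62-fold difference. Against Timp3, the Timp1 level per kb was 1.49 in the control and 2.32 after Sparcl1. Timp2 over Mmp14 stood at 18.9 and 22.9, while Reck over Mmp14, both lower in the treated library, stood at 1.37 and 1.31. Mmp14 over Mmp2 was 0.617 and 0.546. The size of such a quotient depends on the gene lengths used, while its fold between libraries does not. By the longest transcript, Timp1 over Mmp14 stood at 11.6 and 18.7, Timp2 over Mmp14 at 10.8 and 13.0, and Reck over Mmp14 at 0.780 and 0.748, so that Reck lay below Mmp14.

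The summed level of the 4 Timp genes per kb was 18.1 times that of the 5 member protease genes in the control and 22.0 times after Sparcl1. That quotient leaves out the other secreted MMP genes, which summed to 627 CPM in the control and 991 CPM after Sparcl1. Mmp3 alone held 104 and 438 CPM of these. The quotient therefore does not give the balance of inhibitors against all MMPs. Of the summed Timp level, Timp1 made up 39.0% in the PBS library and 47.6% with Sparcl1, while Timp2 went from 34.8% to 31.8% and Timp3 from 26.1% to 20.5%. As shares of the Timp counts, with no division by length, Timp1 went from 9.05% (8.95 to 9.14) to 12.7% (12.6 to 12.8). The direction of the Timp1 and Timp3 shares was the same with every length used, but the share of Timp2 was smaller after Sparcl1 with both lengths and larger without one, at 35.4% and 37.2% of the counts. Which Timp gene ranks first also depends on the length: by the longest transcript, Timp3 stood first in the control (1341 against 1168 CPM per kb for Timp1) and Timp1 first after Sparcl1 (1689 against 1249). By that length Mmp14 stood above Mmp2 in the control, at 101 against 97.2 CPM per kb.

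**Figure D4:**
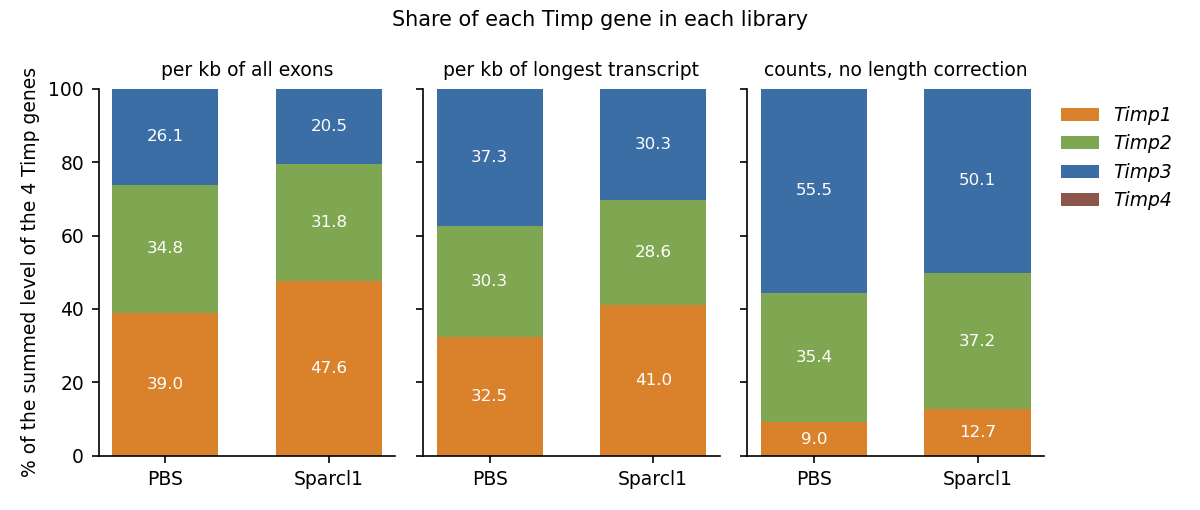
Share of each Timp gene (stacked bars, % on the y axis from 0 to 100) in the summed level of the 4 Timp genes in each library (x axis), by 3 ways of correcting for gene length. The Timp1 share is larger in the Sparcl1-treated library in all 3 panels, and Timp4 is too rare to be seen.

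Other genes of the pathway were read from lists. Of the 4 other membrane-type MMP genes, 3 had at least 20 summed counts, and none was called by the rule at 0.5. Mmp24, named after its values were seen, had 21 and 31 counts. Its log2 ratio was 0.68, but the interval from -0.17 to 1.55 held 0. Mmp15 had 211 and 238 counts (log2 0.29, interval 0.02 to 0.57) and Mmp17 had 84 and 59 (-0.39, -0.90 to 0.10). Of 14 other secreted MMP genes, 8 had enough counts. By the rule at 0.5, which 2.8% and 2.97% of all genes passed, 2 were higher and none lower. These were the stromelysin genes Mmp3 (3078 and 11906 counts, log2 2.07) and Mmp10 (10 and 44 counts, 2.25, interval 1.24 to 3.41). Mmp3 can activate the precursors of other MMPs and is inhibited by Timp1. Mmp13, the cartilage collagenase, had 9241 and 8544 counts and a log2 ratio of 0.00. The difference in Mmp3, at 104 and 438 CPM, was thus far larger than that of any member.

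The list of convertase and plasminogen activator genes, which does not hold Mmp3, had 7 members with a median log2 ratio of 0.02, none of them past 0.5. Its highest ratio was that of Plaur, the urokinase receptor gene, named after its values were seen, with 1262 and 1485 counts (0.35, interval 0.24 to 0.46). Furin, the convertase that activates membrane-type MMPs inside the cell, had 5041 and 4726 counts (log2 0.02). Pcsk6, a related convertase, had 6216 and 5055 (-0.18). Among 11 partners and clearance receptors the median was 0.03 and none passed 0.5. Lrp1, the endocytic receptor that clears MMPs and TIMPs, was level at 0.01, and Thbs1, a thrombospondin, was at -0.34 with 1047168 and 760679 counts.

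Among the 8 other inhibitors and enhancers, 4 had enough counts and none passed 0.5. Pcolce, whose product enhances procollagen processing, had 42374 and 40272 counts (log2 0.04), and the related Pcolce2 1025 and 1014 (0.10). Of 9 other targets and partners of Timp3 and Reck, 7 had enough counts. By the rule at 0.5, none was higher and 1 was lower, against 2.8% and 2.97% of all genes. That gene was Adgra2, which encodes the receptor Gpr124, the partner of Reck in Wnt7 signalling. Its counts were 1364 with PBS and 822 with Sparcl1 (log2 -0.61, interval -0.74 to -0.49). The ligand genes Wnt7a (0 and 0 counts) and Wnt7b (1 and 2), named after their values were seen, were at or under the floor of 3 counts. Adamts5, the aggrecanase that Timp3 inhibits, was at 0.04, and Efemp1, a Timp3-binding matrix protein gene, at -0.18.

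All 8 collagen substrate genes had ratios below 1, with a median of -0.31 and a range from -0.38 to -0.18, and none passed 0.5. Ratios below 1 were seen in 6709 of all 13317 genes. All 8 were called lower at any size, against 21.6% of all genes and 46.2% of those with at least 10000 summed counts. Col4a1 (2364 and 1675 counts) and Col4a2 (3272 and 2410 counts) lay below that depth. Col2a1 was at -0.24 and Col1a1 at -0.38. Mmp14 and Reck, at -0.16 and -0.22, lay nearer to 0 than that median. The summed level of osteoblast markers was 8413 CPM in the control and 6448 after Sparcl1 over 6 genes. Col1a1, also a collagen substrate above, alone held 8205.6 and 6309.1 CPM of it. Fibroblast and synovial lining markers summed to 2839 and 3021 CPM over 6 genes, of which Dcn held 2230.2 and 2255.5. The median log2 ratio was -0.34 for the 9 chondrocyte markers and 0.01 for the 10 macrophage markers, with Lyz2 at 0.31 and Csf1r at -0.05. Col2a1 and Col11a1 belong to both the chondrocyte list and the collagen list. Among chondrocyte markers, Acan (-0.50) and Matn3 (-0.75) were called lower by the rule at 0.5. So were Fcgr1 (-0.61) among macrophage markers and Ibsp (-0.62) and Alpl (-0.54) among osteoblast markers. In the osteoclast and neutrophil lists, Dcstamp (0.69) and S100a8 (1.16, interval 0.23 to 2.16) were called higher. Of all genes, 2.8% were higher and 2.97% lower by the rule at 0.5. With no size asked for, 4 of the 10 macrophage markers were higher and 3 lower, against 20.1% and 21.6% of all genes. That last rule depends on depth. The 5 endothelial markers summed to 2.85 and 2.10 CPM. The part of any of these cells in the ratios of Timp1, Mmp14 and Reck was not tested.

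**Figure D5:**
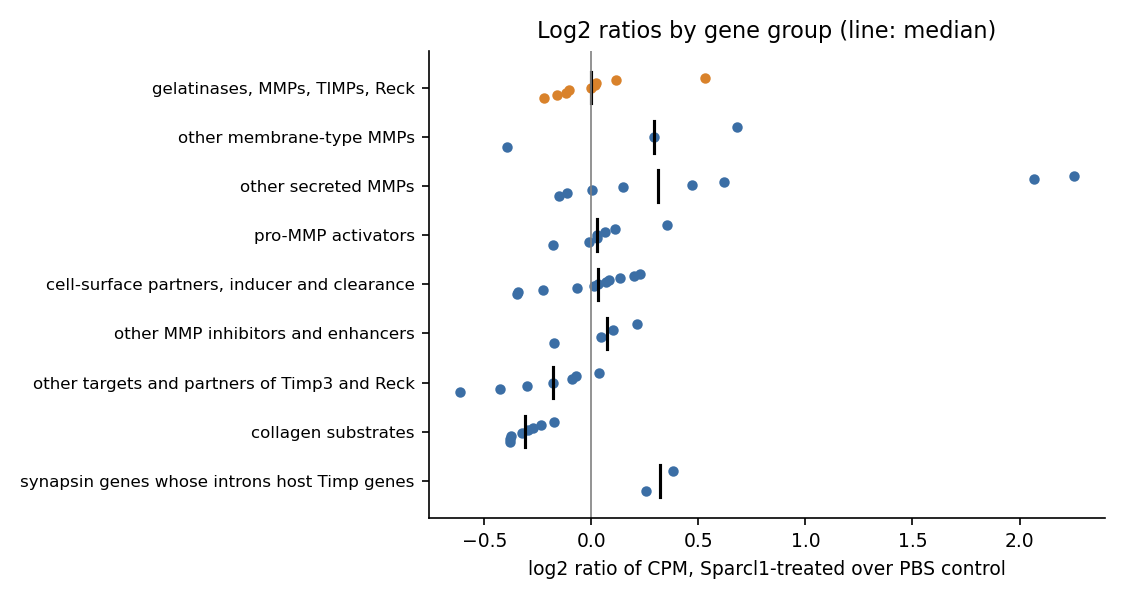
Log2 ratio of CPM (x axis, Sparcl1-treated over PBS control) of each gene with at least 20 summed counts, by group (y axis), with a black line at the group median and the 9 members in orange. Mmp3 and Mmp10 lie past 2 among the other secreted MMPs, and the 8 collagen genes all lie below 0.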

How the data were processed

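The authors deposited whole-number read counts per gene symbol, 1 column per library. The submitters' processing notes name Trimmomatic, FastQC, STAR, HTSeq and genome build mm10. Versions, annotation, strand setting and the handling of reads with several matches are not given in the sources used here. Counts were scaled with TMM factors (0.988 and 1.01) from edgeR 4.0.16 in R 4.3.3. Ratios, exact intervals and figures used Python 3.11.15, scipy 1.17.1, pandas 2.3.3 and matplotlib 3.10.9. Copies of a read made by PCR were not told apart, so intervals may be too narrow. A count of 0 entered a ratio as 3 counts. Coordinates and exon lengths (union of exons) came from GENCODE M21 on GRCm38, the assembly mm10 names, which matched 21900 of 21983 symbols (99.6%) and all 10 members. Promoters came from RefSeq. The ratio, interval and calling steps were tested on simulated counts with counting error only. The scaling, the gene lengths and the spread between cultures were not part of that test. Named genes were all members, of each pathway list the 2 with most counts and any called by the rule at 0.5, and genes overlapping a member. Cell type markers are named as examples chosen after their values were seen. Members, lists and rules were chosen with earlier results of these data known. Alternatives changed the scaling (total counts, DESeq2 1.42.0 size factors, upper quartile, 2256 predicted, clone or date-like names left out), the count minimum, the size asked for and the gene length.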

Additional observations from a re-analysis of the deposited data

How the results depend on the processing

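No paired analysis was possible because each group had 1 library, and for the same reason no replicate could be left out. All 5 members called at any size kept their direction under the 4 other scalings. The largest shift came from total counts, which raised every log2 ratio by 0.03 and gave 0.57 for Timp1 and -0.19 for Reck. With no size asked for, it called 3 members higher in place of 2, and 3455 higher and 2162 lower genes in place of 2675 and 2873. At that scaling Mmp16 was at 0.03. By the 2-fold rule no member was called under any scaling or count minimum, or at 1.5-fold; at 0.5 on the log2 scale 1 was higher. Over all genes, that rule called 127 higher and 126 lower genes. At 1.5-fold it called 309 and 313, and at 0.5 it called 373 and 395. With at least 100 summed counts it called 20 and 38, and with at least 10000, a minimum chosen after seeing the data, 1 and 0. With no minimum 201 were higher and 183 lower. At 0.5, a minimum of 100 left 224 higher and 280 lower, and 10000 left 6 higher and 6 lower. With no size asked for, 10000 left 299 and 441. Without length correction the Timp shares in the control and treated library were 9.05% and 12.7% (Timp1), 35.4% and 37.2% (Timp2) and 55.5% and 50.2% (Timp3). By the longest transcript they were 32.5% and 41.0%, 30.3% and 28.6%, and 37.3% and 30.3%. The summed Timp level over that of the 5 member proteases was 15.7 and 16.9 without length correction, and 16.1 and 19.2 by the longest transcript. Differences in Mmp9 and Timp4 were limited by depth, and the spread between cultures is unknown for every gene.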
